A study of Mus musculus with 6 samples.

Results

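Bone marrow-derived macrophages (BMDMs) carry a small group of genes for inducible effectors of innate defence, and 8 of them are described here among the 35390 genes of the table. The genes are Saa3, Lcn2, Hp and Slpi, which encode secreted proteins, Clec4d and Clec4e, which encode lectin receptors, and Fpr1 and Fpr2, which encode receptors for formylated peptides. Saa3 was chosen by its difference between ZA and Ctrl, the largest of all genes tested, and the other 7 as acute phase or innate receptor genes beside it. The comparison of ZA with Ctrl therefore took part in the choice. Its values and counts for these genes are given as a description and are no test of them.

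RNA of mouse BMDMs was sequenced as 3 Ctrl libraries and 3 ZA libraries, the latter taken 12 h after stimulation with ZA (zoledronic acid), a nitrogen-containing bisphosphonate that blocks bone resorption. The methods of the study describe BMDMs as femoral bone marrow cells of C57BL/6 mice grown with M-CSF, the growth factor of the macrophage lineage, that is, cells in culture apart from bone, epithelium and the other cells of the jaw. The mice obtained for the study were 6-week-old wild-type females per its methods, which do not tie this age to the libraries, and the concentration of ZA is not given for these libraries in the sources used here. Nothing in the labels says that the 3 libraries of a group came from separate mice or cultures, so that p-values measure the spread between these libraries, which may be technical.

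Acute phase proteins are made within hours of an inflammatory stimulus, mostly by the liver, and macrophages and neutrophils make several of them locally. In mice Saa3 is the serum amyloid A gene expressed outside the liver and by macrophages. C/EBP factors are known activators of Saa3, Lcn2 and Hp downstream of inflammatory cytokines, and the lectin and formyl peptide receptors sense microbial glycolipids and peptides and signal through Syk and through Gi proteins.

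The promoters of 4 of the genes are shown because they hold the same C/EBP letters. RefSeq promoter windows (build GRCm38.p6) were found for 7 of the 8 genes, Hp having none in the table used, and the 250 bases before each start were searched on both strands for 5 motifs. The letters TTGCNNAA of C/EBP were held by 4 of the 7 windows, compared with 9.56% of all 32851 windows. PU.1 (GAGGAA) was found in the windows of 4 genes, Lcn2, Clec4d, Clec4e and Fpr2, against 23.3% of all windows, and STAT (TTCNNNGAA) in that of Fpr2, against 7.02%. The letters of NF-kB (GGANNTTCC) and AP-1 (TGANTCA) stood in 0 of the 7 windows, and 3.59% and 6.75% of all windows held them. No match overlapped that of another motif. A match is a description of the letters and does not show that a factor binds. The absence of these letters within 250 bases does not show that a gene lacks a site for the factor. The C/EBP match, in capitals, lay 99 to 92 bases before the start of Saa3 (chr7:46715677-46715926, minus strand), 216 to 209 bases before that of Lcn2 (chr2:32387740-32387989, minus strand), 241 to 234 bases before that of Slpi (chr2:164356508-164356757, minus strand) and 66 to 59 bases before that of Clec4e (chr6:123289872-123290121, minus strand).
Saa3: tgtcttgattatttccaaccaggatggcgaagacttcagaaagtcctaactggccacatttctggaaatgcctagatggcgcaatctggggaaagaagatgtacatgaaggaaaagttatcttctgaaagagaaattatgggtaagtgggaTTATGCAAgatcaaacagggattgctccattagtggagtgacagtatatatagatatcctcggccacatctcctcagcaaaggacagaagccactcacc
Lcn2: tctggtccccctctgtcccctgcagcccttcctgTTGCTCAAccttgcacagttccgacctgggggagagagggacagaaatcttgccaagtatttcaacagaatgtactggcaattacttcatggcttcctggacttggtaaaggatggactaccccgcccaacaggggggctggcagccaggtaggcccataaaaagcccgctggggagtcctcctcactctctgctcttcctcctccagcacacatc
Slpi: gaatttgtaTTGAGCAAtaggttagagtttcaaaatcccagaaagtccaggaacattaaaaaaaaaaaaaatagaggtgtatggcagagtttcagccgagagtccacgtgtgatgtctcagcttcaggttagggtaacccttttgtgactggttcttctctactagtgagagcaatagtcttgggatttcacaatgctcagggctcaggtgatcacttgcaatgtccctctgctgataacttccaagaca
Clec4e: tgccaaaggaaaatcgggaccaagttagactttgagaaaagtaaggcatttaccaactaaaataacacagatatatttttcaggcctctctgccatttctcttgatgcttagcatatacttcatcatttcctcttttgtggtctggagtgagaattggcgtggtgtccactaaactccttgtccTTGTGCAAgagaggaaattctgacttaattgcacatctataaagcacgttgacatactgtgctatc

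Library totals were between 41230600 and 42155808 fragments, and a gene tested had a median of 1394 fragments per library. Values are FPKM, that is, fragments per kilobase of the gene and per library total, as the authors deposited them. Differences are means of log2(FPKM + 1) in ZA minus Ctrl, with the standard error from limma, a scale that understates the change of genes with low FPKM. The 11 macrophage markers all reached a mean FPKM of 1, and their sum was 8566 to 8675 FPKM in Ctrl and 8787 to 9015 FPKM in ZA libraries. No dendritic cell marker (0 of 7) and no lymphocyte marker (0 of 6) reached a mean FPKM of 1.

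All 8 genes passed the filter of a mean FPKM of 1 and were among the 9799 genes tested. Their mean was higher in ZA for 5 genes, Saa3, Clec4d, Clec4e, Fpr1 and Fpr2, and lower for 3 genes, Lcn2, Hp and Slpi, while 56.9% of all genes tested had a higher mean in ZA. The ZA libraries lay above all Ctrl libraries for 3 of the 8 genes, Saa3, Clec4d and Clec4e, compared with 11.4% of all genes tested, and below them for 0 of the 8, compared with 6.76%. By limma with an adjusted p under 0.05, 0 of the 8 were called, against 0.367% of the genes tested, with 0.204% higher and 0.163% lower. At an unadjusted p under 0.05 (limma) there were 6 of the 8, 4 higher and 2 lower, against 12.3% of all genes, with 7.5% higher and 4.85% lower. Voom on recovered fragments called 2 of the 8, and 132 of all 9799 genes tested. Because the comparison chose the genes, these counts are no test of them and nothing is read from them. Over all genes limma called 36, 20 higher and 16 lower, and after centring libraries on their medians 11 higher and 18 lower. The median difference of the 8 genes was 0.18 (log2), beside 0.01 for all genes tested.

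**Figure D1:**
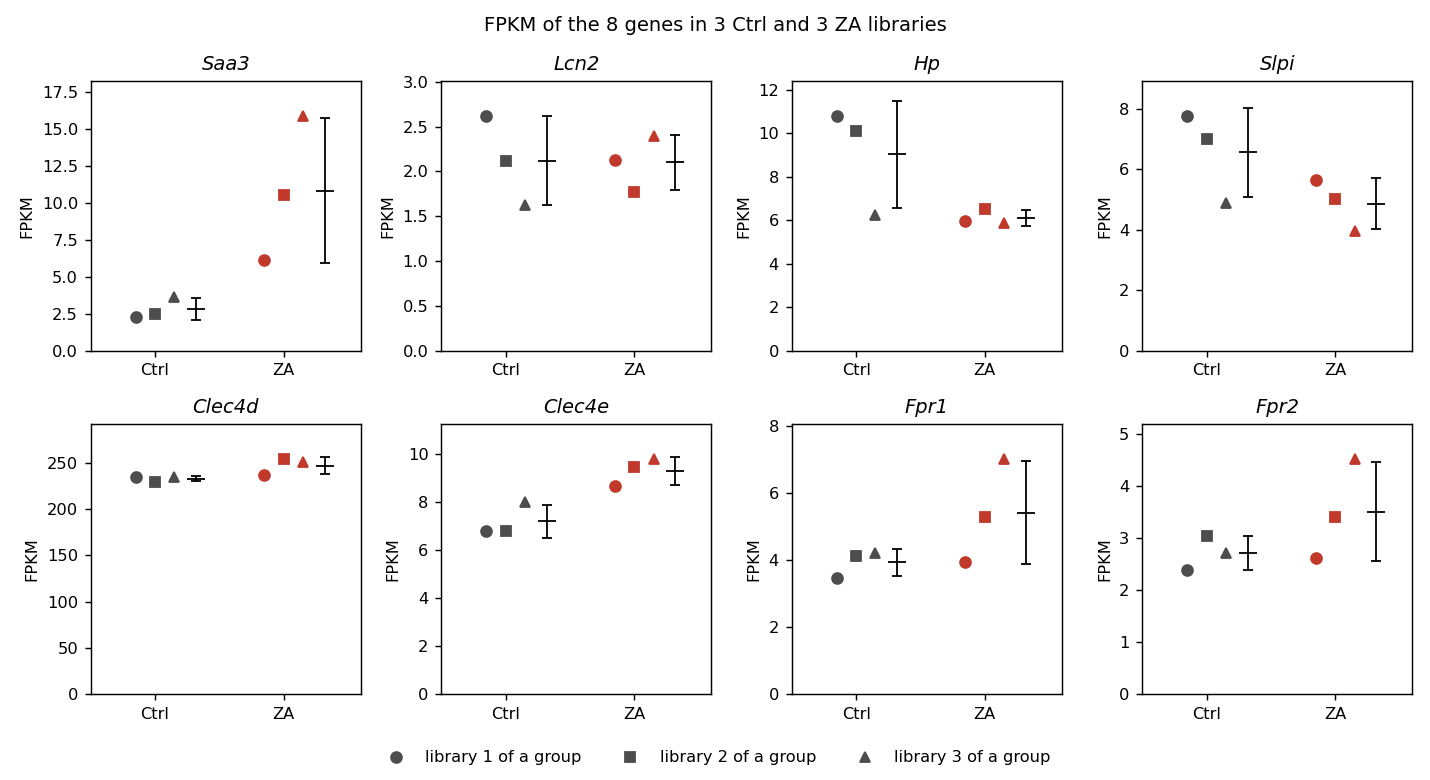
FPKM (linear axis from 0) of each of the 8 genes in the 3 Ctrl (grey) and 3 ZA (red) libraries, with the mean and SD (n = 3) at the right of each group and the symbol showing the library's number. The 3 ZA libraries stood above the 3 Ctrl libraries for Saa3, Clec4d and Clec4e, and the groups overlapped for Lcn2, Hp, Slpi, Fpr1 and Fpr2.

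Saa3, a lipid-binding acute phase protein, was low in Ctrl BMDMs and several times higher after ZA. The Ctrl libraries 1, 2 and 3 held 2.26, 2.49 and 3.65 FPKM (50, 55 and 81 fragments), and the ZA libraries 1, 2 and 3 held 6.12, 10.5 and 15.9 FPKM (134, 232 and 355 fragments). The highest Ctrl library lay below the lowest ZA library, and within ZA the highest was 2.59 times the lowest. Saa3 thus averaged 2.80 ± 0.746 FPKM over the Ctrl and 10.8 ± 4.88 FPKM over the ZA libraries (SD, n = 3), a ratio of 3.87 and a difference of 1.57 with a standard error of 0.28 (log2). In Ctrl the Saa3 level exceeded that of 17.9% of the genes tested, and its difference ranked first of 9799. Klf2, which encodes a zinc finger transcription factor and stood next, differed by 0.57. Without ZA 3 the difference of Saa3 was 1.27 and without ZA 1 it was 1.89.

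The ZA libraries differed from each other in Saa3 far more than counting error gives. Their SD was 45.0% of the mean, the sixth widest spread among the genes tested in ZA (rank 6 of 9799), and 6.96 times the SD that counting fragments would give. In Ctrl the SD was 26.6% of the mean (rank 101), or 2.10 times the counting SD. For the median gene the SD was 3.72% of the mean in ZA and 3.54% in Ctrl, so that the level of Saa3 after ZA was known less precisely than that of most genes.

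Lcn2, the siderophore-binding lipocalin that withholds iron from bacteria, was low in both groups, with a difference far smaller than the spread between libraries. Its FPKM was 2.62, 2.11 and 1.63 in Ctrl 1, 2 and 3 and 2.13, 1.78 and 2.39 in ZA 1, 2 and 3, from 58 to 93 fragments per library. The groups overlapped, Ctrl holding both the highest and the lowest library. The means were 2.12 ± 0.494 and 2.10 ± 0.309 (SD, n = 3), with a difference of -0.0018 and a standard error of 0.12. The spread between libraries was 2.03 times the counting SD in Ctrl and 1.27 times in ZA. Within a library, Saa3 over Lcn2 gave ratios of 0.864, 1.18 and 2.24 (Ctrl) and of 2.87, 5.92 and 6.63 (ZA).

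Hp encodes haptoglobin, the scavenger of free haemoglobin, and its mean was lower in ZA. The FPKM was 10.8, 10.1 and 6.23 in Ctrl 1, 2 and 3 and 5.95, 6.53 and 5.86 in ZA 1, 2 and 3. Ctrl 3 lay among the ZA libraries, while Ctrl 1 and 2 lay above them. Hp averaged 9.03 ± 2.45 FPKM over Ctrl and 6.11 ± 0.363 FPKM over ZA libraries (SD, n = 3), a ratio of 0.677 and a difference of -0.47 with a standard error of 0.16, the seventh lowest of the genes tested (rank 7 of 9799). The spread lay in Ctrl, where the SD was 6.11 times the counting SD, compared with 1.10 times in ZA. Without Ctrl 3 the difference was -0.69, and without Ctrl 1 it was -0.33.

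Slpi, the secreted inhibitor of neutrophil elastase and cathepsin G, took the same direction as Hp. Its FPKM was 7.76, 7.01 and 4.90 in Ctrl 1, 2 and 3 and 5.64, 5.01 and 3.95 in ZA 1, 2 and 3. The groups overlapped because Ctrl 3 was below ZA 1 and ZA 2. Means were 6.56 ± 1.48 and 4.87 ± 0.857 (SD, n = 3), with a ratio of 0.742 and a difference of -0.36 with a standard error of 0.15 (rank 25 of 9799 from the lowest). Over the 6 libraries Hp and Slpi had a correlation of 0.902 on the log2 scale, and 0.826 for the deviations from the group means. These and the other correlations below are descriptions over 6 libraries that share 2 groups and their library totals.

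The summed neutrophil and stromal markers differed between the Ctrl libraries in the same order as Hp and Slpi. The 18 neutrophil markers, of which 8 reached a mean FPKM of 1 and Ly6g was listed at 0, summed to 90.0, 78.9 and 72.8 FPKM in Ctrl 1, 2 and 3 and to 72.8, 74.7 and 68.5 FPKM in ZA 1, 2 and 3. Csf3r, which macrophages also express, made up much of this sum, with 34.4 ± 0.537 FPKM over Ctrl and 34.7 ± 0.853 FPKM over ZA libraries (SD, n = 3). S100a9, also in the list of antimicrobial genes below, had 23.1, 17.3 and 13.3 FPKM in Ctrl 1, 2 and 3. Ngp and Mmp9 fell in the same order, but not all neutrophil markers did. Elane had 2.35, 2.54 and 2.52 FPKM in Ctrl 1, 2 and 3, and Camp and Retnlg were highest in Ctrl 3. The 8 stromal markers, 4 of them reaching a mean FPKM of 1, summed to 34.7, 26.7 and 19.3 FPKM in Ctrl and to 25.0, 21.3 and 17.5 FPKM in ZA. Both sums were highest in Ctrl 1 and lowest in ZA 3, and both overlapped between the groups. Within ZA, Hp was highest in ZA 2 and Slpi in ZA 1. The order of the Ctrl libraries was not particular to these markers, as Il1rn had 9.83, 8.72 and 7.42 FPKM in Ctrl 1, 2 and 3. The 4 monocyte markers did not follow this order, with sums of 11.2, 10.2 and 11.1 FPKM in Ctrl 1, 2 and 3 and of 11.7, 11.6 and 11.3 FPKM in ZA 1, 2 and 3, so that their ZA sums lay above the Ctrl sums. Of the 8 neutrophil markers tested 4 were lower in ZA at an unadjusted p under 0.05 (limma), where 4.85% of all genes tested lay. At an adjusted p under 0.05 there were 0 neutrophil markers. Their part in the differences of Hp and Slpi was not tested. In bulk RNA, fewer cells of a type and less RNA per cell cannot be told apart.

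**Figure D2:**
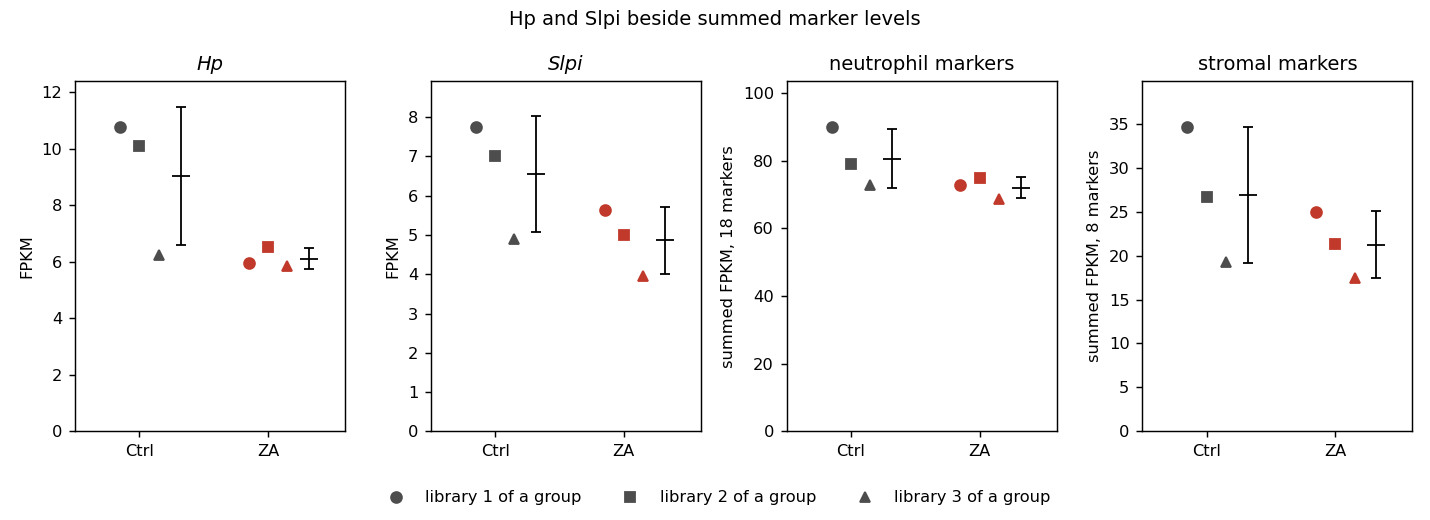
FPKM of Hp and Slpi and summed FPKM of 18 neutrophil and 8 stromal markers (linear axes from 0) in each Ctrl (grey) and ZA (red) library, with mean and SD (n = 3) beside each group. Of the Ctrl libraries, number 1 is the highest and number 3 the lowest in all 4 panels, and the ZA libraries reach at most 6.53 FPKM for Hp and 5.64 FPKM for Slpi.

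Clec4d encodes MCL, which pairs with Mincle, the product of Clec4e, and both receptors bind mycobacterial glycolipids and signal through the Fc receptor gamma chain. Clec4d was by far the most abundant of the 8 genes, above 97.8% of the genes tested in Ctrl. Its FPKM was 234, 229.7 and 234 in Ctrl 1, 2 and 3 and 237, 254 and 251 in ZA 1, 2 and 3. All ZA libraries were higher than all Ctrl libraries, by a small margin, with means of 233 ± 2.74 and 247 ± 8.96 (SD, n = 3), a ratio of 1.06 and a difference of 0.09 with a standard error of 0.03. The SD was 1.34 times the counting SD in Ctrl and 4.24 times in ZA.

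Clec4e was present at a small part of the Clec4d level per length, and its ZA to Ctrl ratio was larger. Its FPKM was 6.78, 6.79 and 7.97 in Ctrl 1, 2 and 3 and 8.64, 9.44 and 9.76 in ZA 1, 2 and 3, from 851 to 1240 fragments. The groups did not overlap, and the means were 7.18 ± 0.685 and 9.28 ± 0.576 (SD, n = 3), a ratio of 1.29 and a difference of 0.33 with a standard error of 0.07 (rank 40 of 9799). The difference stayed between 0.30 and 0.40 when any 1 library was left out. Per length, Clec4d exceeded Clec4e by 34.6, 33.8 and 29.4 times in Ctrl and by 27.4, 26.9 and 25.7 times in ZA, and these ratios did not overlap.

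Fpr1 and Fpr2, the receptors for bacterial and mitochondrial formyl peptides, varied together over the libraries. Fpr1 had an FPKM of 3.46, 4.11 and 4.22 in Ctrl 1, 2 and 3 and of 3.94, 5.29 and 7.01 in ZA 1, 2 and 3. For Fpr2 the Ctrl libraries held 2.37, 3.03 and 2.70 FPKM and the ZA libraries 2.60, 3.40 and 4.50 FPKM. Of both genes ZA 1 lay among the Ctrl libraries and ZA 2 and 3 above them. Within a library Fpr1 exceeded Fpr2 by 1.46 ± 0.103 times among Ctrl and 1.54 ± 0.024 times among ZA libraries (SD, n = 3), and their correlation over the libraries was 0.980, or 0.974 for the deviations from the group means.

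Fpr1 averaged 3.93 ± 0.407 FPKM over Ctrl and 5.41 ± 1.54 FPKM over ZA libraries (SD, n = 3), a ratio of 1.38 and a difference of 0.36 with a standard error of 0.15. For Fpr2 these means were 2.70 ± 0.328 and 3.50 ± 0.955, a ratio of 1.30 and a difference of 0.27 with a standard error of 0.14. These differences rested largely on ZA 3, without which they were 0.18 for Fpr1 and 0.11 for Fpr2. Without ZA 1 the difference of Fpr2 was 0.42. The ZA libraries spread widely, with an SD of 28.4% of the mean for Fpr1 (rank 46 of 9799) and 27.3% for Fpr2 (rank 57).

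**Figure D3:**
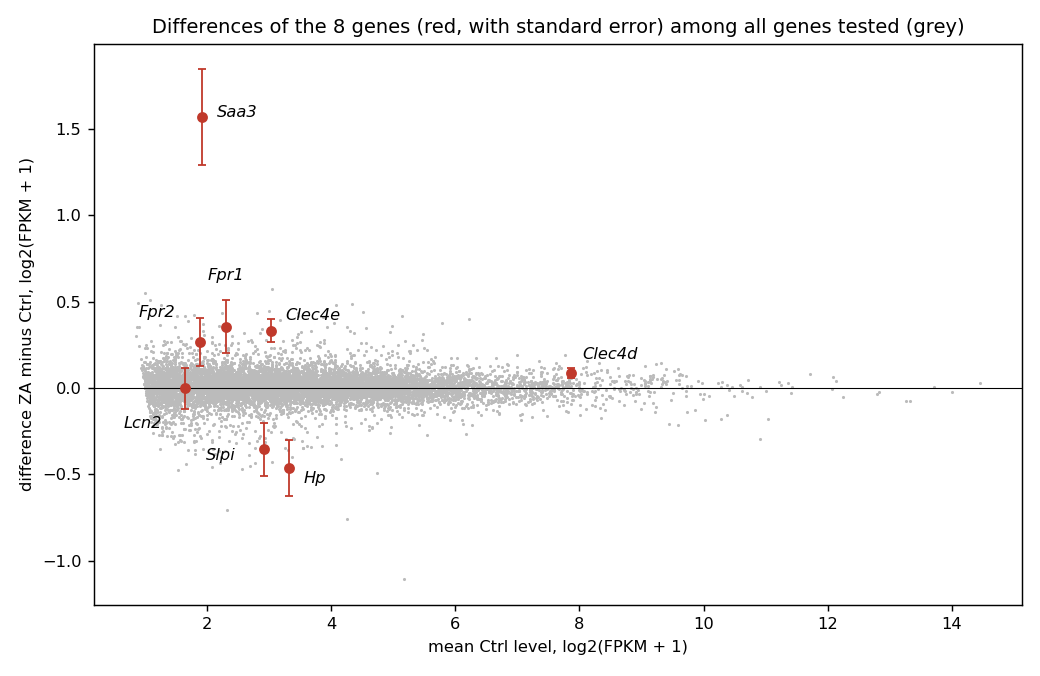
Difference of log2(FPKM + 1), ZA minus Ctrl, against the mean Ctrl level as log2(FPKM + 1), for the 9799 genes tested (grey points) and the 8 genes (red, with the standard error from limma). Saa3, at 1.57, stands alone above the cloud, Hp and Slpi lie at its lower edge and Lcn2 lies at 0.

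In order of their level per length, the genes ran in Ctrl from Clec4d through Hp, Clec4e, Slpi, Fpr1, Saa3 and Fpr2 to Lcn2. Of the neighbours in this order the ranges of the libraries were apart only between Clec4d and Hp and between Slpi and Fpr1. In ZA Saa3 stood in the second place, after Clec4d and before Clec4e, with which its range overlapped, and Lcn2 was again the lowest. Saa3 correlated over the 6 libraries with Clec4e (0.967), Clec4d (0.915), Fpr1 (0.903) and Fpr2 (0.830), and in the opposite direction with Slpi (-0.863) and Hp (-0.768), while Lcn2 (-0.077) showed little relation to it. Deviations of Saa3 from its group means had correlations of 0.961 with those of Fpr1, 0.873 with Fpr2 and -0.845 with Slpi. Those with Clec4e (0.836), Clec4d (0.742) and Hp (-0.405) were weaker than over the libraries as they stood, and that with Lcn2 was -0.16. ZA 1 had the lowest and ZA 3 the highest level within ZA for Saa3, Clec4e, Fpr1 and Fpr2.

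Among genes outside the 8, patterns very like that of Saa3 over the 6 libraries were those of Cd300e (0.995), Epb41 (0.994), Rpl6 (0.994) and Siglece (0.993), by Pearson's correlation of log2(FPKM + 1). Cd300e and Siglece encode receptors of myeloid cells, Epb41 a protein of the membrane skeleton and Rpl6 a ribosomal protein. Cd300e had FPKM values of 1.29, 1.35 and 1.44 in Ctrl and 1.73, 2.02 and 2.43 in ZA. A correlation does not measure the size of a change. The differences were 0.37 for Cd300e, 0.32 for Siglece, 0.09 for Rpl6 and 0.05 for Epb41, beside 1.57 for Saa3. A correlation of at least 0.9 with Saa3 was found for 323 genes, or 3.30% of those tested.

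The genes around these effectors were taken from 8 lists with 144 different genes, written with earlier results of these data known. Of these 100 were tested, and limma with Benjamini-Hochberg adjustment over all genes called 1, C3, against 0.367% of all genes. By voom there were 7, namely C3, Cebpd, Clec4a1, Cybb and Ncf1, which were higher, and Clec7a and Hmox1, which were lower. At an unadjusted p under 0.05 there were 23 higher and 13 lower, where 7.5% and 4.85% of all genes lay, and the median difference was 0.02, beside 0.01 for all genes. After such centring these counts were 17 and 14, and over all genes they went from 735 higher and 475 lower to 507 and 666.

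Among 25 other acute phase genes, 9 were listed at 0 in all libraries, with the liver-type genes Saa1 and Saa2, Saa4 and Crp among them, and 7 were tested. C3, the central complement component, rose from 21.8 ± 0.836 to 30.1 ± 3.16 FPKM (SD, n = 3), a difference of 0.44 with a standard error of 0.07 (adjusted p = 0.0490, limma). Its adjusted p was 0.0506 after centring, 0.0577 after quantile normalization, 0.114 without a trend in the variance prior and 0.239 without a filter, and between 0.122 and 0.200 when any 1 library other than ZA 1 was left out. Over all alternatives it ranged from 0.0033 to 0.239. Ptx3, a long pentraxin, differed by -0.28 (adjusted p = 0.321), and Cd14, the co-receptor for lipopolysaccharide, by 0.12 (adjusted p = 0.332). By unadjusted p, 2 genes were higher and 2 lower, and the median was -0.01.

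Of 18 antimicrobial and tissue-protective genes, not all of them for secreted proteins, 13 were tested and 0 called. At an unadjusted p under 0.05 (limma) 1 was higher and 2 were lower, and the median was -0.13. Acod1, which makes itaconate, had 1.01 ± 0.078 FPKM in Ctrl and 2.01 ± 0.737 in ZA, a difference of 0.55 (adjusted p = 0.236). The IL-1 receptor antagonist Il1rn, at 8.66 ± 1.21 and 6.82 ± 0.166 FPKM, differed by -0.30 (adjusted p = 0.203), and the neutrophil granule gene Ngp by -0.27 (adjusted p = 0.360).

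Among 14 other myeloid C-type lectins 11 were tested and 0 called, with 2 higher and 1 lower at an unadjusted p under 0.05 (limma) and a median of 0.06. Clec4a1 had 127 ± 0.131 FPKM in Ctrl and 145 ± 10.4 in ZA, a difference of 0.19 (adjusted p = 0.157), and Clec4b1 differed by 0.27 (adjusted p = 0.386). Both have close copies next to them, and how the authors divided shared reads is not given in the sources used here. Clec7a, which encodes the beta-glucan receptor Dectin-1, had 275 ± 4.96 and 252 ± 5.55 FPKM, a difference of -0.12 (adjusted p = 0.0942). The 11 signalling genes of lectin receptors were all tested, with 0 called, 3 higher and 0 lower at an unadjusted p under 0.05 and a median of 0.02. The 3 were Plcg2, Card9 and Bcl10, with differences of 0.10, 0.08 and 0.10 (adjusted p between 0.304 and 0.341), while Fcer1g and Syk differed by -0.01 and 0.03.

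Fpr3 and the 4 other formyl peptide receptor genes of the list were listed at 0 in all libraries. Of the 20 genes in this list 15 were tested and 0 called, with 5 higher and 1 lower at an unadjusted p under 0.05 (limma) and a median of 0.03. Those with the largest statistic were 3 subunits of the NADPH oxidase, which makes superoxide when formyl peptide receptors are engaged. Ncf1 differed by 0.12 (adjusted p = 0.0884), Ncf4 by 0.13 (adjusted p = 0.236) and Cybb by 0.16 (adjusted p = 0.113). Anxa1, whose protein is an agonist of Fpr2, differed by -0.09 (adjusted p = 0.391).

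Transcriptional controllers of acute phase genes were a list of 20, of which 19 were tested and 0 called. At an unadjusted p under 0.05 (limma) 7 were higher and 1 was lower, and the median was 0.03. The mean was higher in ZA for 16 of the 19, beside 56.9% of all genes tested. Cebpd, the C/EBP family member induced in the acute phase, had 10.02 ± 0.221 FPKM in Ctrl and 12.7 ± 1.23 in ZA, a difference of 0.31 (adjusted p = 0.0895), whereas Cebpa and Cebpb differed by -0.05 and 0.02. Nfkbiz, which encodes IkB-zeta and is required for part of the Lcn2 response, differed by 0.23 (adjusted p = 0.249), and Atf3, a repressor of inflammatory genes, by -0.11 (adjusted p = 0.235). Stat3 differed by 0.02 (adjusted p = 0.873).

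Of 21 inducing cytokines and receptors 14 were tested and 0 called, with 3 higher and 1 lower at an unadjusted p under 0.05 (limma) and a median of 0.03. The cytokine Il1a had 2.55 ± 0.182 and 1.87 ± 0.053 FPKM, a difference of -0.31 (adjusted p = 0.0699), while Il1b, which missed the filter and was not tested, had 0.814, 0.764 and 0.647 FPKM in Ctrl 1, 2 and 3 and 0.925, 1.38 and 1.36 FPKM in ZA 1, 2 and 3, all ZA libraries being higher. Il6ra and Tlr2 differed by 0.08 (adjusted p = 0.317) and 0.13 (adjusted p = 0.247). Of 15 binding partners and receptors of the secreted proteins 10 were tested and 0 called, with 0 higher and 5 lower at an unadjusted p under 0.05 and a median of -0.09. The mean was lower in ZA for 7 of these 10. The list includes Elane and Prtn3, serine proteases of neutrophil precursors and neutrophil markers above, which differed by -0.27 (adjusted p = 0.110) and -0.36 (adjusted p = 0.0742). Hmox1, which degrades the haem of the haptoglobin complex after uptake, differed by -0.13 (adjusted p = 0.0922).

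**Figure D4:**
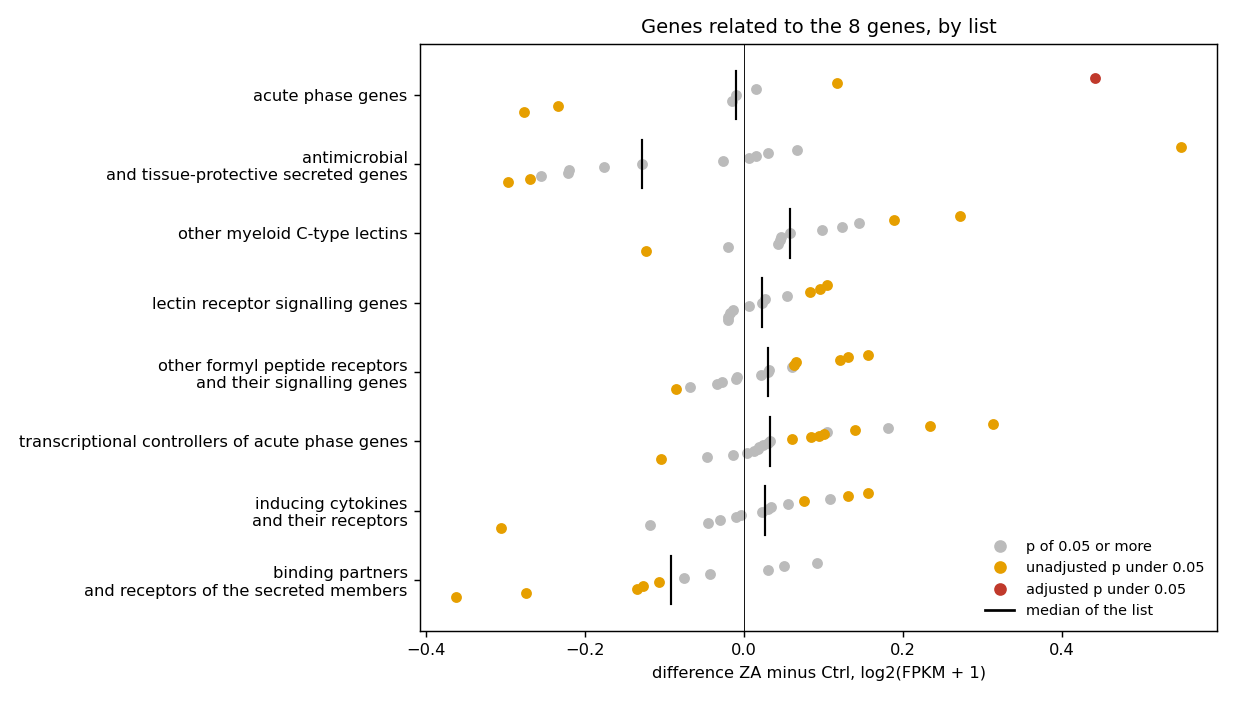
Difference of log2(FPKM + 1), ZA minus Ctrl, of each tested gene of 8 related lists, with the list's median as a line. C3, at 0.44, is the one red point (adjusted p under 0.05), 36 different genes have an unadjusted p under 0.05 with C3 counted, and the medians lie between -0.13 and 0.06.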

How the data were processed

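RNA of 3 Ctrl and 3 ZA libraries of BMDMs was compared, with groups and replicate numbers taken from the sample labels. FPKM values, fragments scaled by gene length and library total, are what the authors deposited for each gene and library. The submitters' processing notes name the build mm9, and the aligner, the counting program and the annotation are not given in the sources used here. The labels name a VAHTS kit and also a SMARTER kit, and the methods of the study only the former.

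Separators were missing from all but 11 of 35434 rows, so that symbol and numbers ran together. To restore a row, readings were sought in which all 6 values came from whole fragments at a single gene length of 20 to 250000 bases, given the totals of the libraries. With 1 whole reading 35163 rows were restored, and 227 more where one reading was less likely by chance by 3 powers of 10, while 44 rows were left out. The 11 intact rows came out identical, and of 1921 simulated rows 1916 were exact, 0 wrong and 5 left out. Each of the 8 genes had 1 whole reading. Library totals were between 41230600 and 42155808 fragments. The 3 fragments taken as the floor are 0.137 FPKM for Saa3, and ratios to counting SD cover counting error only.

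Values were compared as log2(FPKM + 1) over the 9799 genes that reached a mean FPKM of 1. R 4.3.3 and limma 3.58.1 were used (two-sided, eBayes with a trend, Benjamini-Hochberg adjustment). The members and lists were chosen with earlier results of these data known. Genes named are the 8 genes, the gene next after Saa3, the 3 genes of each related list with the largest moderated statistic, the 5 genes with the highest correlation to Saa3, and markers. One gene under this rule is not reported here. Saa1, Saa2, Saa4, Crp, Fcer1g, Syk, Fpr3, Anxa1, Cebpa, Cebpb, Stat3, Il1b and Csf3r were named after their values were seen, for their known roles. On simulated data with 200 of 9799 genes changed 2-fold, 97.5% were called, with 10 unchanged genes, and with 0 changed genes 0 were called. Each simulated gene varied on its own and 200 changed at once, so that these shares need not hold for the data themselves. Promoter windows came from RefSeq on GRCm38.p6, which differs from the build named by the submitters, and no coordinate was carried over between them. Python 3.11.15, NumPy 2.4.6, pandas 2.3.3 and Matplotlib 3.10.9 were used. No pair of libraries in a group was a duplicate (chi-square per gene of 3.52 to 9.73). Alternatives were another pseudocount, no filter and a filter of 5, 2 scalings, no trend, the replicate block, dropping 1 library at a time and, chosen after seeing the data, voom on the fragments recovered.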

Additional observations from a re-analysis of the deposited data

How the results depend on the processing

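The differences of Saa3, Hp, Slpi, Clec4d, Clec4e, Fpr1 and Fpr2 kept their direction under every alternative run. Leaving out 1 library, which with 3 per group cannot move a mean by the whole spread, they ranged from 1.27 to 1.89 for Saa3, -0.69 to -0.33 for Hp, -0.52 to -0.24 for Slpi, 0.07 to 0.12 for Clec4d, 0.30 to 0.40 for Clec4e, 0.18 to 0.53 for Fpr1 and 0.11 to 0.42 for Fpr2, the lowest values of the last 2 without ZA 3. For Lcn2 the sign changed, to 0.0018 with a pseudocount of 0.1 and 0.0034 with voom, with a range of -0.12 to 0.11 without 1 library, all within its spread. With a filter of a mean FPKM of 5, Lcn2, Fpr1 and Fpr2 were not tested. The 36 genes called became 1 without a filter (19336 genes tested), 20 after quantile normalization (10 higher, 10 lower), 1 without a trend and 132 with voom (71 higher, 61 lower), and 0 to 25 without 1 library, 0 without ZA 2 (973 at an unadjusted p under 0.05, limma) and 25 without ZA 1. The 1 related gene called became 0 without a filter, after centring and without a trend, 7 with voom, and 0 to 3 without 1 library. Under quantile normalization the 1 gene was Grn, not C3. The no-filter fit tested more genes, and fits without a library had fewer samples. The cause of the other changes was not tested. The deviations of libraries with the same number correlated at 0.284, 0.0393 and 0.280 across genes, so that number 2 showed little shared deviation, although each number correlated best with its own, and whether the numbers pair the libraries is not settled. With the replicate block 78 of 9799 genes were called (41 higher, 37 lower, limma), among them 2 related genes (C3 and Cebpd) and 3 of the 8 genes. In that fit 7 of the 8 had an unadjusted p under 0.05, beside 1505 of all genes tested. As the comparison chose the 8 genes, nothing is read from their counts. Lcn2 was counted in only 58 to 93 fragments per library, and its spread exceeded counting error, so that depth is one limit beside the variation between libraries.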

Other observations

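The neighbours of the 8 genes along the chromosome (protein-coding genes of RefSeq on GRCm38.p6) had levels of their own. Saa4 and Saal1 lie on either side of Saa3. Saa4 was listed at 0 in all libraries, and Saal1 had 1.65, 1.48 and 1.44 FPKM in Ctrl 1, 2 and 3 and 1.35, 1.46 and 1.28 FPKM in ZA 1, 2 and 3. Around Hp, Txnl4b had mean FPKM values of 5.02 in Ctrl and 4.77 in ZA, and Dhodh 2.67 and 2.72. Clec4d and Clec4e are neighbours of each other, as are Fpr1 and Fpr2. Clec4n, which encodes Dectin-2 and lies on the other side of Clec4d, had 22.1, 24.4 and 28.0 FPKM in Ctrl 1, 2 and 3 and 25.3, 28.0 and 29.0 FPKM in ZA 1, 2 and 3, so that its groups overlapped. Beyond Clec4e and Fpr2, Vmn2r19 and Fpr3 were listed at 0, as were both neighbours of Slpi, Svs5 and Matn4. These neighbours were looked up after the values of the 8 genes had been seen, and no test was made on them.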
